A study of Mus musculus with 6 samples.

Results

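Among the genes counted in cells sorted from MO5 melanomas as PDPN+PDGFRα+ stromal cells, 8 genes of intracellular signalling were described: Plcb1, Slc8a1, Pde1a, Rbms3, Parp8, Chka, Pard3b and Rras2. They were taken from the table by name and are 8 of its 53801 genes and 8 of the 15133 that had enough counts for the comparison across all genes. The set was chosen by its higher counts in DTR than in Ctrl libraries, so the values of the 8 genes in this contrast are a description and carry no test. MO5 tumors grow from B16-OVA melanoma cells placed under the skin. Ctrl mice were littermates without the DTR transgene (genotype DTR-), and DTR mice (genotype DTR+) carried the diphtheria toxin receptor under the control of the Adam12 promoter. Both groups were given diphtheria toxin, which kills the cells that express the receptor, and each group had 3 libraries of total RNA. The transgene reaches only cells with an active Adam12 promoter. By the study's methods the mice were young adults of the C57Bl/6 background, and the labels give no age per sample and do not say whether animals were pooled, so p-values measure the spread between these libraries, which may be in part technical.

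Phospholipase C beta enzymes act below receptors coupled to Gq proteins and split a membrane phosphoinositide into diacylglycerol, which activates protein kinase C, and inositol trisphosphate, which opens calcium stores. Plcb1 encodes one of these enzymes. Slc8a1 encodes NCX1, a plasma membrane exchanger that moves calcium against sodium, and Pde1a encodes a phosphodiesterase that breaks down cyclic nucleotides when calcium and calmodulin bind it. In fibroblasts such calcium and cyclic nucleotide signals bear on contraction, migration and matrix production. Chka encodes choline kinase alpha, which starts the synthesis of phosphatidylcholine, and Rras2 encodes TC21, a membrane-bound GTPase close to the classical RAS proteins. Rbms3 encodes a protein that binds single-stranded nucleic acids and AU-rich RNA, Parp8 an ADP-ribosyltransferase, and Pard3b a relative of the polarity scaffold PAR3.

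The 8 genes lie on 7 chromosomes of GRCm38. Their spans, between the outermost annotated bases, differ by more than an order of magnitude. Rbms3 on chromosome 9 (116572746 to 117629913, minus strand) spans 1057 kb, and Pard3b on chromosome 1 (61638824 to 62642284, plus strand) spans 1003 kb. Plcb1 (134786067 to 135475258, plus strand) and Pde1a (79834453 to 80129458, minus strand) are both on chromosome 2, with spans of 689 and 295 kb. Slc8a1 on chromosome 17 (81373105 to 81738377, minus strand) spans 365 kb, and Parp8 on chromosome 13 (116854820 to 117025537, minus strand) 171 kb. The shortest were Rras2 on chromosome 7 (114046782 to 114117781, minus strand) with 71.0 kb and Chka on chromosome 19 (3851773 to 3894369, plus strand) with 42.6 kb. Exons made up 0.985% of the span in Rbms3 and 28.2% in Chka. Antisense genes within Pard3b and Chka had 115 and 87 counts over all 6 libraries, and counting used strand.

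All 8 genes had at least 1 promoter in the RefSeq table of GRCm38.p6, and with alternative starts there were 12 promoters. The 250 bases before the start are shown for the pair with the shortest spans and the pair with the longest, to set side by side the starts of genes with such different structures. Each is read 5′ to 3′ on the strand of its gene, and capitals mark motifs on either strand. The GC box was searched as GGGCGG. The second motif, CCAAT, binds the factor NF-Y. The third, TATAAA, is the core of the TATA box. The windows are chr19:3851523-3851772 for Chka, chr7:114117782-114118031 for Rras2, chr1:61638574-61638823 for Pard3b and chr9:117629914-117630163 for the distal start of Rbms3.
Chka: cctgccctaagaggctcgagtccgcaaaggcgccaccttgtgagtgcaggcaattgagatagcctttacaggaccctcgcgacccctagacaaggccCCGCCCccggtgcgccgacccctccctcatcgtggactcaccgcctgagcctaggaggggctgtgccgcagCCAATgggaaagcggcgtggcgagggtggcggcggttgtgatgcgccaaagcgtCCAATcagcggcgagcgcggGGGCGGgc
Rras2: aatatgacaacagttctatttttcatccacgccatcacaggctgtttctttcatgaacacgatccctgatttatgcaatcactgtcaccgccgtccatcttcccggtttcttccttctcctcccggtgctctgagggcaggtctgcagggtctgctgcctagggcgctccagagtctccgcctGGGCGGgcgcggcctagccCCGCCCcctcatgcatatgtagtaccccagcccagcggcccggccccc
Pard3b: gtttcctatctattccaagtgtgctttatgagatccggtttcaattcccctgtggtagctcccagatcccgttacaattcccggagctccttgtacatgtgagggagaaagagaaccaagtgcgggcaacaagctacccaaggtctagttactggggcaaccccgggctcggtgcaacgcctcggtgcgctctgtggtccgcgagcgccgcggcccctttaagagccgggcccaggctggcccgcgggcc
Rbms3: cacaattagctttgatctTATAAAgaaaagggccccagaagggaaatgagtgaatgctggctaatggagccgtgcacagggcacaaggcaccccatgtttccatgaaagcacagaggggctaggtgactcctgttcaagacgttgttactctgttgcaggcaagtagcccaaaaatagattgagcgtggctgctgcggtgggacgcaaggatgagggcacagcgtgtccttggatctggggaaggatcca

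The Chka window held 2 GC boxes and 2 CCAAT boxes, the Rras2 window 2 GC boxes, the Pard3b window none of the marked motifs, and the Rbms3 window 1 TATAAA far from the start. A GC box was present in 4 of the 12 promoters, those of Chka, Parp8, Plcb1 and Rras2, and in 33% of 32544 promoters of the same length in the table. CCAAT was found for Chka and Pde1a (33.8% of all promoters) and TATAAA for Pde1a and Rbms3 (12.3%). Further words were searched on both strands. The full cyclic AMP response element TGACGTCA (1.55% of all promoters), the AP-1 word TGANTCA (6.73%), the hypoxia response core ACGTG (16.6%) and the E-box CACGTG (6.03%), which contains that core, were in none of the 12 windows. The shorter element TGACG, which lies within the full element, was found for Parp8 and Pde1a (17.8%), the TEAD word GGAATG for Pde1a (12.6%) and the NFAT core GGAAA in 8 of the 12 promoters, of 7 genes (55.7%). The ratio of observed to expected CpG was at least 0.6 in 5 of the 12 promoters and in 34.2% of all promoters. A match describes letters in this window only.

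Total counts per library ran from 22339635 to 34271929, so that 3 counts correspond to between 0.0875 and 0.134 CPM, a floor for counting error only. Adam12, whose promoter drives the receptor, was at 216, 181 and 175 TMM-scaled CPM in Ctrl and 165, 151 and 112 in DTR. This scale, CPM divided by edgeR's TMM factors, holds for all levels given here unless stated. The log2 fold change of Adam12 was -0.42 (standard error 0.154, adjusted p = 0.602 by edgeR's quasi-likelihood F-test, Benjamini-Hochberg), and it was -0.27 without DTR replicate 3. Of the 2 sort markers, Pdgfra was at 125, 42.7 and 63.0 in Ctrl and 96.7, 54.0 and 132 in DTR, and Pdpn at 73.3, 46.0 and 46.9 in Ctrl and 67.3, 49.0 and 99.2 in DTR, so that both were present in every library and overlapped between groups. All 12 fibroblast markers were detected, with a summed level of 5965 to 15265 CPM in Ctrl and 6899 to 18064 CPM in DTR, and Col3a1 was the most abundant. Of these, 11 had a log2 fold change above 0 and 1 below, with a median of 0.43, the same direction as the 8 signalling genes, and all 12 overlapped between groups. All 12 pigment cell markers were detected too, with a sum of 18740 to 22313 CPM in Ctrl and 18337 to 21393 CPM in DTR, above the fibroblast sum in every library. Dct led that list, in which 4 genes had a log2 fold change above 0 and 8 below. In these bulk libraries more cells of a type and more RNA per cell cannot be told apart.

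Other marker lists were at lower sums, and a gene is said to lead a list where it was the most abundant over all libraries pooled. Those of pericytes and smooth muscle summed to 56.95 to 102 CPM in Ctrl and 46.5 to 65.3 CPM in DTR, with Higd1b at 0 in all libraries, Mcam the most abundant and 7 of 8 tested genes with a log2 fold change below 0. Endothelial genes summed to 27.9 to 35.8 CPM in Ctrl and to 47.9, 35.7 and 104 CPM in DTR, with 5 of 7 tested genes above 0. Tek led this list through DTR replicate 3 alone, with 63.8 CPM there, and Vwf was above Tek in the other libraries. Skeletal muscle genes, with Ttn and Des the most abundant, were at 14.3 to 17.1 CPM in Ctrl and 17.9 to 19.9 CPM in DTR, ranges that did not overlap, while Myh4 and Myh2 were at 0. Macrophage genes, with Lyz2, Ptprc or Mrc1 the most abundant by library, summed to 123 to 206 CPM in Ctrl and 151 to 156 CPM in DTR. Markers of T and NK cells, led by Gzmb, summed to 9.96 to 65.6 CPM in Ctrl and 20.3 to 29.4 CPM in DTR, and 11 of the 12 had a log2 fold change below 0. Neutrophil genes, led by Csf3r and with Ly6g and Camp at 0, stayed between 1.38 and 7.69 CPM. Keratinocyte genes, led by Dsp and with Krt1, Krt15 and Dsg3 at 0, stayed between 1.20 and 4.02 CPM, and adipocyte genes, led by Pparg, between 1.52 and 5.66 CPM. Schwann cell genes were at 685 to 881 CPM, with Sox10, a gene shared with pigment cells, the most abundant. By the study's methods, CD45+ hematopoietic and CD31+ endothelial cells were gated out in the sort. Pigment cell markers were nonetheless above the fibroblast markers in these libraries. The part of pigment cells and of the other cell types in the levels of the 8 genes was not tested.

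Plcb1 was among the least abundant of the 8 genes and had the second-highest fold change. It was counted 40, 52 and 56 times in the Ctrl libraries and 171, 224 and 152 times in the DTR libraries, which is 1.63, 2.18 and 1.97 scaled CPM against 4.97, 7.21 and 6.70. The lowest DTR library stood 2.28 times above the highest Ctrl library, the widest gap among the 8 genes. The Ctrl mean was 1.93 ± 0.274 (SD, n = 3) and the DTR mean 6.30 ± 1.17, and the log2 fold change was 1.71 (standard error 0.274).

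Slc8a1 was at 11.8, 11.7 and 7.24 scaled CPM in Ctrl and 18.9, 21.7 and 19.4 in DTR. Ctrl replicate 3 was low, the DTR libraries lay close together, and the groups did not overlap. The log2 fold change of Slc8a1 was 0.97 (standard error 0.204), from 10.3 ± 2.61 (SD, n = 3) to 20.0 ± 1.49 (SD, n = 3).

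Pde1a had the highest fold change and the most uneven Ctrl libraries. It was counted 71, 19 and 35 times in Ctrl and 255, 144 and 131 times in DTR, or 2.90, 0.796 and 1.23 scaled CPM against 7.42, 4.64 and 5.78. The Ctrl libraries differed by up to 3.64 times among themselves, but the highest of them, replicate 1, was still below every DTR library. The log2 fold change of Pde1a was 1.86 (standard error 0.479), and it was 2.54 without Ctrl replicate 1 and 1.53 without Ctrl replicate 2.

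**Figure D1:**
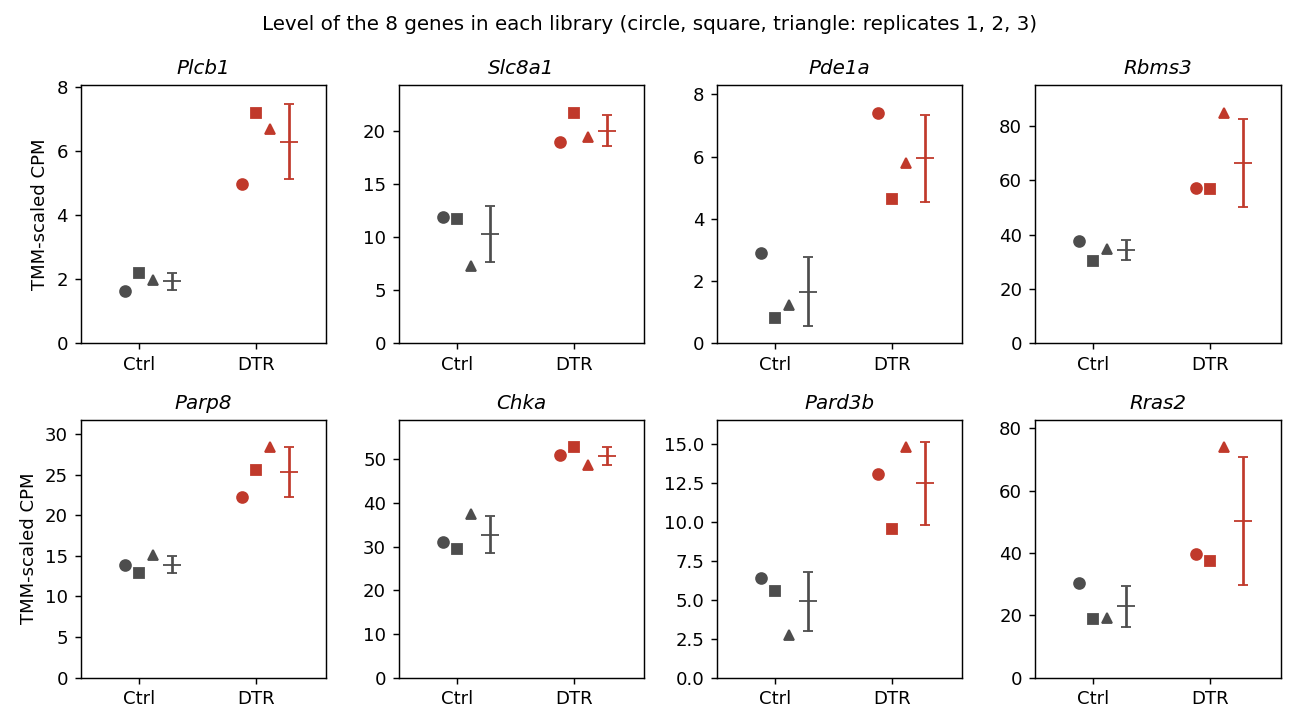
TMM-scaled CPM (vertical axes, from 0, 1 scale per gene) of the 8 genes in the 3 Ctrl libraries (grey) and the 3 DTR libraries (red); symbols give the replicate number, and the bars at the side show mean ± SD (n = 3). Every DTR point lies above every Ctrl point in all 8 panels, and DTR replicate 3 stands above the other DTR libraries for Rras2 and Rbms3.

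Chka had the smallest fold change and the most even DTR libraries. Its levels were 31.0, 29.6 and 37.5 scaled CPM in Ctrl and 51.0, 52.8 and 48.6 in DTR. The DTR libraries differed by no more than 1.08 times among themselves, and the groups did not overlap. For Chka the log2 fold change was 0.64 (standard error 0.118), which is 1.55-fold.

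Rras2 was at 30.4, 18.9 and 19.3 scaled CPM in Ctrl and 39.6, 37.4 and 73.9 in DTR. Ctrl replicate 1 and DTR replicate 3 were each high within their group, and the lowest DTR library was 1.23 times the highest Ctrl library, the narrowest gap of the set. For Rras2 the log2 fold change was 1.14 (standard error 0.299), and 0.75 without DTR replicate 3.

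Rbms3, the most abundant of the 8 in CPM over all libraries, was at 37.8, 30.4 and 34.5 scaled CPM in Ctrl and 57.2, 56.7 and 85.0 in DTR. Here too DTR replicate 3 was the highest. Its log2 fold change was 0.95 (standard error 0.177).

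Parp8 was at 13.9, 12.9 and 15.04 scaled CPM in Ctrl and 22.2, 25.5 and 28.4 in DTR, with little spread in either group. For Parp8 the log2 fold change was 0.86 (standard error 0.138).

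Pard3b was counted 157, 132 and 78 times in Ctrl and 449, 297 and 335 times in DTR, or 6.41, 5.53 and 2.74 scaled CPM against 13.1, 9.57 and 14.8. Ctrl replicate 3 was low, as for Slc8a1, and no Ctrl library reached a DTR library. This is a log2 fold change of Pard3b of 1.35 (standard error 0.327).

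The 8 genes shared the direction, which chose them, but not the order of the libraries. DTR replicate 3 was the highest DTR library for 4 genes (Rbms3, Parp8, Pard3b and Rras2), replicate 2 for 3 and replicate 1 for 1. Ctrl replicate 1 was the highest Ctrl library for 5 genes (Slc8a1, Pde1a, Rbms3, Pard3b and Rras2). Ctrl replicate 1 and DTR replicate 3 also had the highest fibroblast sum of their groups. With the log2 of that sum as a covariate, an alternative chosen after seeing the data, the log2 fold change was 0.83 for Rras2, 0.80 for Rbms3, 1.13 for Pard3b and 1.64 for Pde1a. These were lower than without the covariate. Slc8a1 at 0.94 and Parp8 at 0.85 were slightly lower too, and Plcb1 at 1.81 and Chka at 0.68 were higher.

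Counted per kb of exon, the order of levels in Ctrl was Rras2 (6.43 ± 1.84 scaled CPM per kb, SD, n = 3), Rbms3 (3.29 ± 0.355), Chka (2.72 ± 0.354), Parp8 (1.57 ± 0.123), Slc8a1 (0.545 ± 0.139), Pard3b (0.372 ± 0.146), Pde1a (0.273 ± 0.185) and Plcb1 (0.173 ± 0.0247). The ranges of the Ctrl libraries overlapped between Rbms3 and Chka, between Slc8a1 and Pard3b, between Pard3b and Pde1a and between Pde1a and Plcb1, so these neighbours were not separated. In DTR Rras2 was at 14.1 ± 5.76 and Plcb1 at 0.567 ± 0.106 scaled CPM per kb. The levels were higher in DTR for all 8, and Plcb1 and Pde1a, with the highest fold changes, were the lowest per kb in Ctrl.

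Across all genes, the quasi-likelihood F-test of edgeR (Benjamini-Hochberg) called 0 of 15133 genes (0%) at an adjusted p under 0.05. At an unadjusted p under 0.05 there were 1199 genes (7.92%), of which 577 (3.81% of those tested) were higher and 622 (4.11%) lower in DTR. The 8 genes were all among the 577. DESeq2's Wald test with the same adjustment called 17 of 20360 genes higher (0.0835%) and 14 lower (0.0688%), and all 8 genes were among the 17. Every DTR library was above every Ctrl library for 956 genes (6.32% of those tested), the 8 included, and below for 1238 (8.18%). Since the set came from this contrast, nothing is read from these counts. By size, 0.674% of the tested genes had a higher log2 fold change than Pde1a, 0.866% than Plcb1 and 8.47% than Chka.

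Of the close relatives of the 8 genes, 16 had enough counts. By the same edgeR test 0 of the 16 were called, as were 0% of all genes, and DESeq2 called 0 too. Only Slc8a2 had an unadjusted p under 0.05 in edgeR, beside 7.92% of all genes. The set was chosen from this contrast, so a called relative could itself have been a member, and nothing is read from these counts. Plcb3 and Plcb4 were the most abundant phospholipase C beta genes per kb of exon. Plcb4 was at 80.9 ± 6.94 scaled CPM in Ctrl and 88.7 ± 9.86 in DTR (SD, n = 3), or 0.13 on the log2 scale (standard error 0.113). Plcb2 was at -0.17 on the log2 scale (standard error 0.196) and Plcb3 at -0.14 (standard error 0.0884), and for Plcb3 no DTR library reached the lowest Ctrl library. Plcb3 overlaps Ppp1r14b on the opposite strand. Among the calcium exchangers, Slc8a2 was at 0.898, 2.05 and 0.949 scaled CPM in Ctrl and 4.04, 3.19 and 1.63 in DTR, so the groups overlapped. Slc8a2 stood at 1.19 on the log2 scale (standard error 0.493), with an adjusted p of 0.608 (edgeR, Benjamini-Hochberg). Slc8a3 was under 1.2 scaled CPM in every library, at 0.64 on the log2 scale (standard error 0.891), and the mitochondrial exchanger gene Slc8b1 had one of -0.15 (standard error 0.201).

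Pde1b and Pde1c, which encode the other calmodulin-dependent phosphodiesterases, had log2 fold changes of -0.052 (standard error 0.399) and 0.13 (standard error 0.278). Rbms1 was at 87.9 ± 10.99 scaled CPM in Ctrl and 106 ± 12.6 in DTR (SD, n = 3), or 0.27 on the log2 scale (standard error 0.126), and Rbms2 stood at 0.11 (standard error 0.101). Parp6 and Parp16 had log2 fold changes of 0.093 (standard error 0.129) and -0.22 (standard error 0.335). Chkb, the other choline kinase gene, was at 1.10, 1.09 and 2.53 scaled CPM in Ctrl and 1.19, 0.805 and 0.485 in DTR, with overlapping groups and a log2 fold change of -0.92 (standard error 0.542). The log2 fold changes of the rest were 0.092 for Pard3 (standard error 0.106), -0.14 for Rras (standard error 0.232) and 0.17 for Mras (standard error 0.178). With 1 library left out Pard3 ran from 0.023 to 0.17 and Mras from 0.0039, without DTR replicate 3, to 0.30, and likewise Plcb4 from 0.079 to 0.24, Plcb2 from -0.28 to -0.096, Slc8b1 from -0.25 to -0.062, Rbms1 from 0.17 to 0.36, Rbms2 from 0.056 to 0.16 and Parp6 from 0.044 to 0.13.

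**Figure D2:**
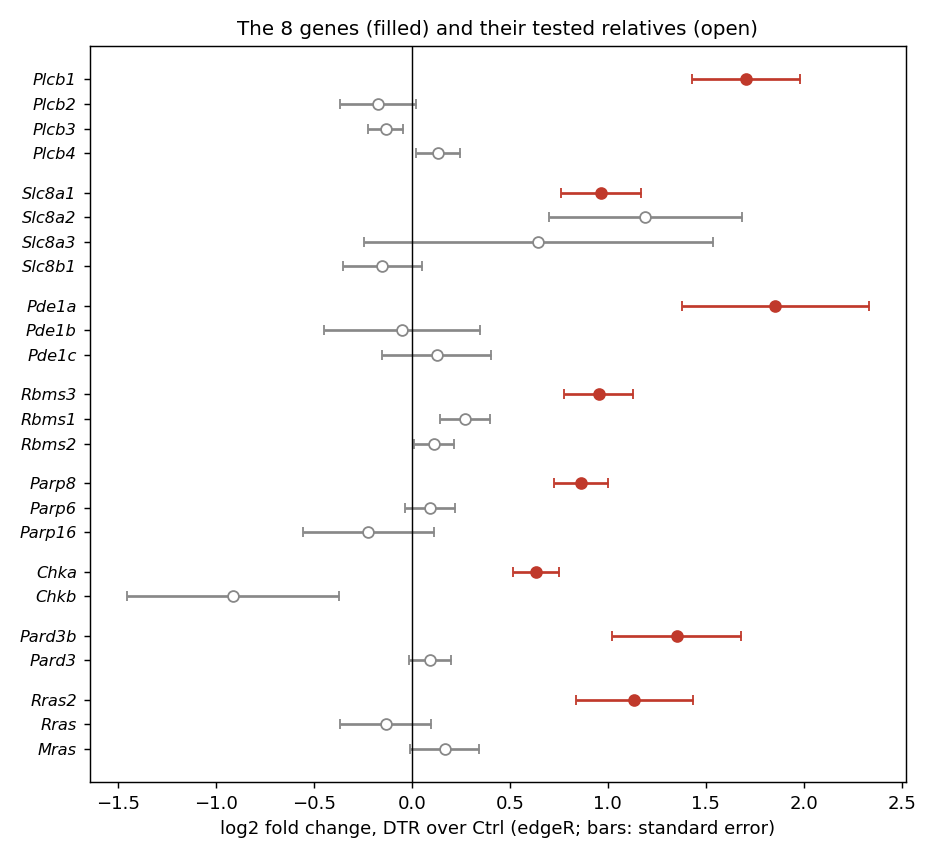
Log2 fold change, DTR over Ctrl, from edgeR (horizontal axis) with standard errors (bars) for each of the 8 genes (filled red) and for the tested genes of the same family (open grey), 3 libraries per group. The filled points lie between 0.64 and 1.86, and of the relatives Slc8a2 (1.19) and Slc8a3 (0.64) are above 0.5, with wide bars.

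As a share of the summed level per kb of its family, the mean of each of the 8 genes was higher in DTR, with groups that overlapped for Pde1a (29.9% in Ctrl replicate 1 and 27.8% in DTR replicate 2). Chka made up 84.7 ± 4.90% of choline kinase in Ctrl and 94.1 ± 2.33% in DTR (SD, n = 3). Rras2 made up 31.4 ± 8.71% of the R-Ras family in Ctrl and 49.5 ± 3.81% in DTR, and Parp8 28.1 ± 3.83% and 42.6 ± 6.02% of its family. Pde1a went from 16.7 ± 11.9% to 40.8 ± 11.2% of the PDE1 genes, and Pde1c stood at 0.873 scaled CPM per kb in Ctrl and 0.951 in DTR, beside 0.273 and 0.989 for Pde1a. Slc8a1 was at 18.8 ± 4.90% and 29.7 ± 1.15% of the exchangers, where Slc8b1 was the most abundant, and Rbms3 at 11.5 ± 0.663% and 17.7 ± 2.13%, where Rbms1 was. Pard3b made up 5.34 ± 1.86% and 12.1 ± 2.95% beside Pard3. Plcb1 was the smallest part of its family, with 0.882 ± 0.112% in Ctrl and 2.82 ± 0.339% in DTR. These shares use the contrast that chose the genes and are a description.

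In addition, 8 lists of pathway genes were examined, with 251 genes tested that are not among the 8 signalling genes and that include the 16 relatives. The edgeR test called 0 of them, as of all genes, with 14 higher and 8 lower at an unadjusted p under 0.05 (5.58% and 3.19%, against 3.81% and 4.11% of all genes). DESeq2 called 0, against 0.0835% higher and 0.0688% lower of all genes, and the lists leave out the 8 genes it called. Every DTR library was above every Ctrl library for 21 (8.37%) and below for 22 (8.76%), against 6.32% and 8.18% of all genes. The median log2 fold change of the 251 was 0.041, and that of all tested genes was -0.0029.

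For Gq and phosphoinositide signalling 34 genes were tested, with a median log2 fold change of 0.080, and 2 were above (5.88%) and 5 below (14.7%) without overlap, against 6.32% and 8.18% of all genes. Plce1, a phospholipase C that RAS proteins bind, had the highest log2 fold change of the list (0.89, standard error 0.476), with DTR replicate 3 at 35.8 scaled CPM and the other DTR libraries at 16.8 and 8.41, and it was at 0.21 without that library. Plcd3 had the lowest (-0.76, standard error 0.423), at -1.18 without DTR replicate 3. Genes of this list that did not overlap between groups, named after their values were seen, included the paired G protein subunits that act on phospholipase C beta. Gnaq was at 69.9 ± 5.52 scaled CPM in Ctrl and 89.9 ± 15.04 in DTR (SD, n = 3), and Gna11 at 75.5 ± 4.44 and 64.5 ± 1.30. Their log2 fold changes were 0.36 (standard error 0.132) and -0.23 (standard error 0.0861), each with an adjusted p of 0.602 (edgeR, Benjamini-Hochberg). For Prkca, a kinase activated by diacylglycerol, the log2 fold change was 0.33 (standard error 0.113).

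Of the calcium transport and store genes 34 were tested, with a median of -0.013 and 3 above (8.82%) and 2 below (5.88%) without overlap, against 6.32% and 8.18% of all genes. Trpc1, a cation channel gene, had the highest log2 fold change (1.32, standard error 0.557), from 2.61, 0.586 and 0.984 scaled CPM in Ctrl to 2.85, 2.93 and 4.72 in DTR, and Ryr1 the lowest (-0.55, standard error 0.458). Trpc1 was at 2.14 without Ctrl replicate 1, and Ryr1 at -0.20 without DTR replicate 1 and -1.10 without DTR replicate 2. The 32 genes of cyclic nucleotide synthesis and breakdown had a median of 0.13, with 1 above (3.13%) and 4 below (12.5%) without overlap, against the same shares. Adcy5, an adenylyl cyclase gene, was the highest (1.16, standard error 0.545), with 8.204 scaled CPM in DTR replicate 3 and 2.85 and 2.48 in the other DTR libraries, and Pde4a the lowest (-0.32, standard error 0.267). Without DTR replicate 3 Adcy5 was at 0.41 and Pde4a at -0.65.

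The 35 RNA-binding regulators had the highest median of the lists, 0.17, with 27 genes at a log2 fold change above 0. Of them 8 (22.9%) were above in every DTR library and 0 below, against 6.32% and 8.18% of all genes. They included, named after their values were seen, the splicing regulators Mbnl1, Mbnl2, Rbfox2, Ptbp2 and Ptbp3, and Zfp36l1 and Cpeb3, which act on mRNA decay and translation. The log2 fold changes of these named genes ran from 0.18 for Mbnl2 to 0.48 for Cpeb3, below those of the 8 signalling genes. The list had a median span of 79116 bases, against 22641 for all tested genes, and with an offset for genomic span its median was 0.017, while that of all genes moved to -0.077. Nova1 (1.06, standard error 0.524) and Rbfox1 (-1.17, standard error 1.05) were the ends of the list. Nova1 was at 0.33 without DTR replicate 3, and Rbfox1 at 0.63 without Ctrl replicate 2, which held most of its Ctrl counts.

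The other lists lay close to 0, and of all genes 6.32% were above and 8.18% below without overlap. The 20 ADP-ribosyltransferase and ADP-ribose hydrolase genes had a median of 0.081, with Macrod2 the highest (0.46, standard error 0.264) and Adprhl2 the lowest (-0.24, standard error 0.161, and -0.16 without DTR replicate 1), and 1 above (5%) and 2 below (10%) without overlap. The 24 genes of phosphatidylcholine and phosphatidylethanolamine synthesis had a median of -0.021, with 1 above (4.17%) and 0 below (0%), and ran from -0.92 for Chkb to 0.51 for Pcyt1b (standard error 0.515). Pcyt1b was at 0.10 without Ctrl replicate 2 and Chkb at -0.39 without Ctrl replicate 3. The 30 polarity genes had a median of -0.053, with 1 above (3.33%) and 0 below (0%), and ran from -0.30 for Llgl2 (standard error 0.193) to 0.23 for Pard6b (standard error 0.248). Llgl2 was at -0.18 without Ctrl replicate 2 and Pard6b at 0.073 without Ctrl replicate 1. The 42 genes of RAS proteins and the MAP kinase cascade had a median of -0.015, with 4 above (9.52%) and 9 below (21.4%), against 6.32% and 8.18% of all genes. Rasgrp1, an activator of RAS, was the lowest (-1.64, standard error 0.639) and was at 6.11 scaled CPM in Ctrl replicate 2 and 1.92 and 1.30 in the other Ctrl libraries. Its log2 fold change was -0.69 without Ctrl replicate 2. Rasgrp4 was the highest (1.00, standard error 0.558), at under 1.2 scaled CPM throughout, and was at 0.66 without Ctrl replicate 3. Among the 9 below without overlap, named after their values were seen, were the kinase genes Map2k1 (-0.24, standard error 0.0946), Map2k2 (-0.27, standard error 0.0939) and Mapk3 (-0.21, standard error 0.0980) and the GTPase genes Rap2b (-0.15, standard error 0.0873) and Ralb (-0.19, standard error 0.0941), while the GTPase genes Rap1a (0.39, standard error 0.115) and Rap1b (0.25, standard error 0.0950) were among the 4 above.

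**Figure D3:**
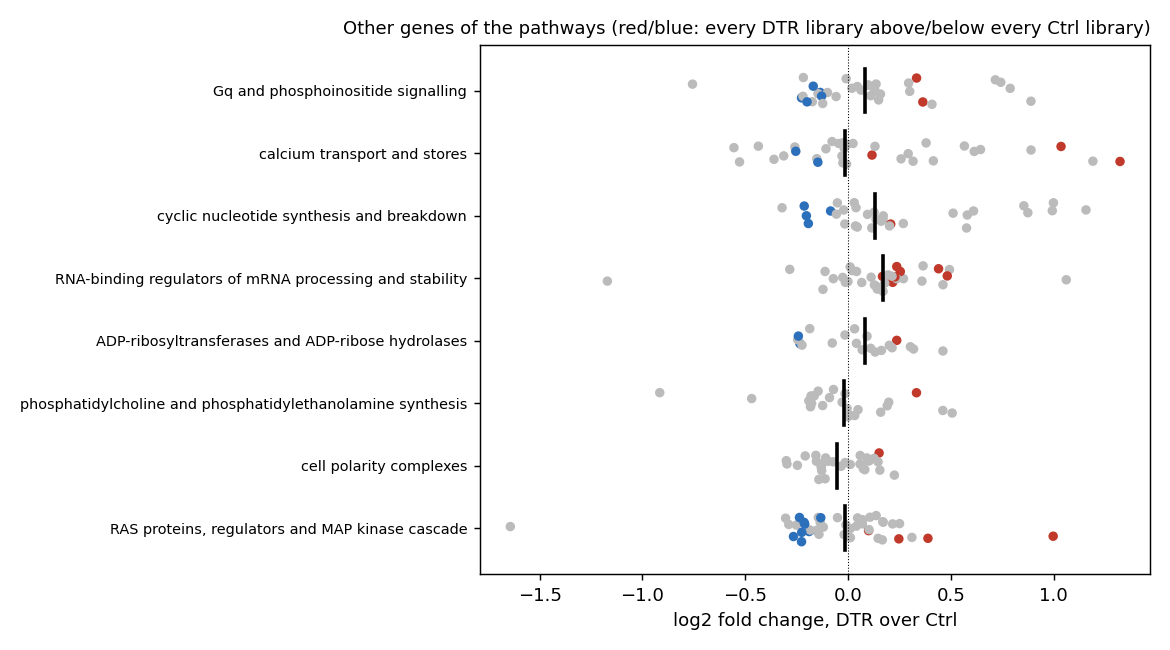
Log2 fold change, DTR over Ctrl (horizontal axis), of the tested genes of 8 pathway lists, without the 8 signalling genes; each dot is a gene, red where every DTR library was above every Ctrl library, blue where every one was below, and black lines are list medians. The RNA-binding list has 8 red and 0 blue dots and the RAS and MAP kinase list 4 red and 9 blue.

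All 8 genes had a span above the median of the tested genes, which was 22641 bases, and their own median was 330140 bases. Spans over 300 kb were found in 4 of the 8 (Plcb1, Slc8a1, Rbms3 and Pard3b) and in 2.71% of the tested genes, and spans over 100 kb in 6 of the 8 and in 13.5%. Only 0.205% of the tested genes were longer than Rbms3 and 0.251% longer than Pard3b, whereas 31.5% were longer than Chka. Over all tested genes the log2 fold change moved with span. Its median was -0.065 for the 4179 genes of up to 10 kb, -0.020 for the 4704 genes of 10 to 30 kb, 0.022 for 4195 genes of 30 to 100 kb, 0.082 for 1633 genes of 100 to 300 kb and 0.19 for 410 genes over 300 kb. With a per-library offset for span, the log2 fold change was 1.63 for Pde1a, 1.40 for Plcb1, 1.04 for Pard3b, 1.02 for Rras2, 0.72 for Slc8a1, 0.67 for Parp8, 0.62 for Rbms3 and 0.55 for Chka, while the median of all genes moved to -0.077. The value of Rbms3 thus moved by more than 1.5 times, from 0.95, the largest difference among the 8 genes.

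**Figure D4:**
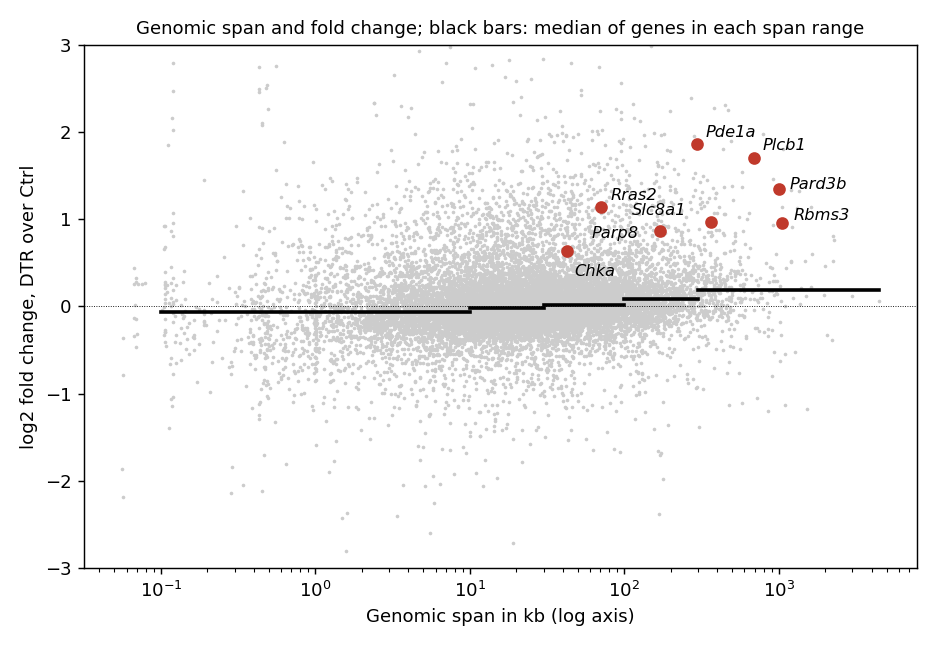
Genomic span in kb (horizontal log axis) against log2 fold change, DTR over Ctrl, for tested genes (grey dots; 15 genes beyond 3 in either direction are not drawn), the median of each span range (black bars) and the 8 genes (red). The medians run from -0.065 to 0.19 with span, and the 8 genes lie between 0.64 and 1.86.

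The genes whose levels over the 6 libraries were most like those of the set were found by the correlation with the mean standardised log2 level of the 8 genes. These were 5330438D12Rik (Pearson r = 0.994), Magi3 (0.993), Atl2 (0.993), Gm48653 (0.991) and Gm26887 (0.989), each over 6 libraries that share the group difference, so the values are a description. Of 15125 genes compared, 47 had an r above 0.95. Magi3, which encodes a scaffold protein of cell junctions, was at 29.6, 26.7 and 27.8 scaled CPM in Ctrl and 37.2, 38.2 and 42.5 in DTR. Atl2, which encodes a GTPase that fuses tubules of the endoplasmic reticulum, was at 32.9, 31.6 and 30.2 in Ctrl and 40.4, 42.6 and 44.4 in DTR. The log2 fold changes of Magi3 and Atl2 were 0.48 (standard error 0.104) and 0.43 (standard error 0.0961), smaller than those of the 8 genes. 5330438D12Rik, Gm48653 and Gm26887 were under 2.2 scaled CPM in every library, and 5330438D12Rik and Magi3 overlap the abundant genes Cnot2 and Phtf1 on the opposite strand.

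The 8 genes kept a log2 fold change above 0 in all 120 values from 15 alternatives of the processing, which ran from 0.55 for Chka with the span offset to 2.54 for Pde1a without Ctrl replicate 1. With 1 library left out at a time the range was 1.59 to 1.86 for Plcb1, 0.77 to 1.08 for Slc8a1, 0.73 to 1.06 for Rbms3, 0.78 to 0.96 for Parp8, 0.57 to 0.75 for Chka and 1.06 to 1.595 for Pard3b. Groups that do not overlap fix this direction when 1 library is left out. The genes were also chosen by this direction, so it is no sign of stability.

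**Figure D5:**
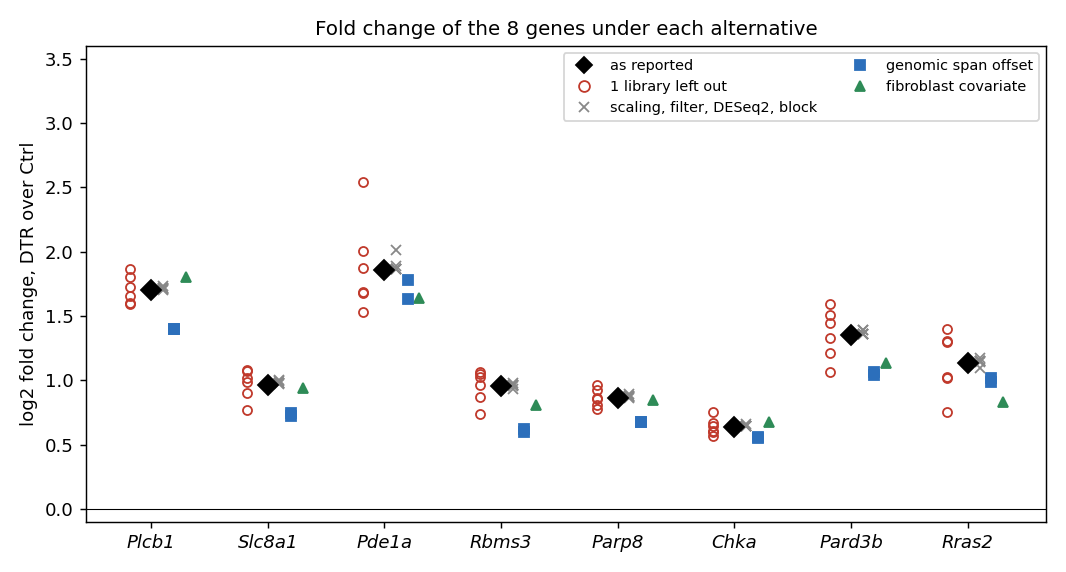
Log2 fold change, DTR over Ctrl (vertical axis), of each of the 8 genes as reported (black diamonds), with 1 library left out (red circles), with other scaling, filters, DESeq2 or a replicate block (grey crosses), with the span offset (blue squares, with and without the block) and with the fibroblast covariate (green triangles). The red circles of Pde1a and Rras2 are the most spread, and the span offset lowers all 8 genes.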

How the data were processed

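RNA of cells sorted as PDPN+PDGFRα+ from MO5 tumors was sequenced in 3 Ctrl and 3 DTR libraries. The authors trimmed reads with cutadapt 3.4, aligned them to GRCm38 with STAR 2.7.3a and counted them per gene with featureCounts 2.0.1, using strand, and deposited the raw counts used here. Whether intronic reads were counted is not given in the sources used here. The deposited scores (counts divided by the authors' size factors, rounded) and the columns of the authors' own comparison (fold changes, p-values, dispersions) were not used.

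Of 53801 genes, 27987 had no name in the table, and 27927 of these were named from GENCODE M21 (GRCm38), which also gave spans and exon lengths. Genes were kept by edgeR's filterByExpr (minimum count 10, minimum total 15), scaled with TMM and compared by edgeR 4.0.16's two-sided quasi-likelihood test without covariates, with Benjamini-Hochberg adjustment over 15133 genes. Dividing each log2 fold change by the root of its F statistic gave the standard error. Depth was 22339635 to 34271929 counts per library. Alternatives were other scaling and filters, DESeq2 1.42.0, a replicate block, leaving out each library, an offset from a loess curve (smoothing span 0.5) over log2 of genomic span and, added after seeing the data, a fibroblast covariate. R 4.3.3, Python 3.11.15 and matplotlib 3.10.9 were used, and the fits were tested on simulated data.

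The members, gene lists and tests were chosen with earlier results of these data known. Named genes were the 8 members, their tested relatives, the lowest and the highest other gene of each pathway list, Adam12, Pdgfra, Pdpn, the 5 genes closest in pattern, and the leading and undetected markers. Others are said to have been named after their values were seen. Some genes of the pathway lists are not reported here by name.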

Additional observations from a re-analysis of the deposited data

How the results depend on the processing

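Over all genes, 0 genes were called in edgeR, 31 in DESeq2 and between 0 and 2 with 1 library left out (2 without Ctrl replicate 1). The median log2 fold change of the 8 genes was 1.05 and 0.88 to 1.24 with 1 library left out. The span offset, without and with the replicate block, gave 0.87 and 0.87 for the 8 genes, -0.077 and -0.076 for all genes, -0.095 and -0.084 for Gq and phosphoinositide signalling, -0.075 and -0.086 for cyclic nucleotides, 0.017 and 0.019 for RNA-binding regulators, -0.020 and -0.014 for ADP-ribosylation, -0.15 and -0.13 for phospholipid synthesis, -0.16 and -0.15 for polarity, -0.15 and -0.17 for RAS and MAP kinases, -0.12 and -0.12 for Plcb4, -0.14 and -0.12 for Pde1c, and -0.19 and -0.19 for Pard3. Polarity was at -0.022 with library size alone, and the fibroblast covariate gave 0.029 for RAS and MAP kinases, 0.17 for Pde1b and -0.14 for Pdgfra (0.29 as reported). With 1 library left out, list medians ran from -0.083 to 0.0052 for polarity, -0.060 to 0.10 for calcium transport, -0.037 to 0.033 for RAS and MAP kinases, 0.020 to 0.17 for cyclic nucleotides, 0.017 to 0.16 for Gq and phosphoinositide signalling and 0.0095 to 0.15 for ADP-ribosylation. The median of phospholipid synthesis ran from -0.043 to -0.0025 and that of RNA-binding regulators from 0.12 to 0.22. Single genes ran from -0.050 to 0.48 for Pde1c, -0.54 to 0.17 for Pde1b, -0.51 to 0.026 for Parp16, -2.46 to 0.63 for Rbfox1, -0.13 to 1.43 for Slc8a3, -0.38 to 0.030 for Rras and -0.026 to 0.83 for Pdgfra. The causes were not tested. The log2 fold change of Pdpn was 0.37 (standard error 0.275), 0.070 without DTR replicate 3 and 0.63 without Ctrl replicate 1. The replicate block called 0 genes. Deviations from the group means of same-numbered libraries correlated with r of 0.114, 0.132 and -0.0420, and those of differently numbered libraries with r from -0.215 to 0.102. With 3 libraries per group these values cannot tell whether the numbers pair the libraries. Depth limits the genes near 1 CPM, such as Plcb1 and Pde1a in Ctrl, where 19 to 71 counts lay behind each value.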
